A study of Homo sapiens with 6 samples.

Results

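Metallothioneins are small, cysteine-rich proteins that bind zinc and copper, and MTF1 is the zinc-sensing transcription factor that switches on their genes. The genes described here are MT1A, MT1B, MT1E, MT1F, MT1G, MT1H, MT1M, MT1X and MT2A, together with MTF1, and they were chosen by gene name. All array probes that the scanner files name for them were taken, which gave 13 probes for 10 genes, out of 50599 probes on the array. Metallothionein genes lie side by side in a cluster and are transcribed in response to metals, glucocorticoids and oxidative stress. The proteins store zinc, buffer cadmium and other toxic metals, and scavenge radicals. Squamous epithelia express several of them in their basal layers.

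The arrays came from 3 oral squamous cell carcinoma (OSCC) lines, HSC-3, KON and Ca9-22. Each line was transfected with siDLEU1-2, an siRNA against the long noncoding RNA DLEU1, or with siCtrl, a nontargeting siRNA, and RNA was taken 72 h later. From 100 ng of total RNA, amplified and labeled cRNA was made and hybridized to one-color arrays, 1 array for each line and siRNA, so the 3 lines served as the replicates of a knockdown. These p-values therefore measure the spread of the knockdown difference between lines, and no line has a repeat transfection. A single siRNA was used against DLEU1, so a response to DLEU1 loss and a response to this siRNA alone cannot be told apart.

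DLEU1 itself was at 5.83% of control in HSC-3 and 8.05% in KON, with 9.23% in Ca9-22 (mean log2 fold change -3.72 ± 0.34, SD, n = 3 lines; limma adjusted p = 0.0227). Of 10 squamous epithelial marker genes, 9 were well above background on all 6 arrays. TP63 was so on 5. Of 4 fibroblast and muscle markers, COL1A1 and DES were well above background on all 6 arrays, and COL1A2 and PDGFRB on none. COL1A1 was higher with siDLEU1-2 in every line, with scaled log2 levels of -0.65 and 1.43 for HSC-3, -0.30 and 1.02 for KON, and -0.34 and 0.62 for Ca9-22. DES was higher in every line too, with -0.36 and 0.060 for HSC-3, -1.03 and -0.91 for KON, and -0.24 and 1.13 for Ca9-22. Leukocyte and endothelial markers were mixed: CD14 and CD68 were detected on all arrays, and no endothelial marker was. CD68 was lower with siDLEU1-2 in every line (scaled log2 levels 1.68 and 0.20 for HSC-3, 2.26 and 0.62 for KON, -1.33 and -2.38 for Ca9-22), while CD14 and CDH5 were higher in every line. Of the 10 squamous epithelial genes, 5 were lower in every line (KRT5, KRT6A, DSG3, SFN and TP63), CDH1 and EPCAM were higher in every line, and KRT14, KRT17 and LAMB3 went in different directions between lines or probes. The part of these markers in the metallothionein values was not tested. For a probe to be kept for testing, each line needed at least 1 array with a signal well above background, and 19956 probes met this. The arrays were alike in brightness, with 43.0% to 45.7% of probes well above background and a 75th percentile of processed signal between 200.5 and 256.8.

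The 12 metallothionein probes lie on chromosome 16 between positions 56643332 and 56718021 of hg19, a stretch of 74690 bases. MTF1 has 1 probe, at chr1:38275414-38275473 on the minus strand. Because these genes are alike in sequence, the probes are shown first. The first 3 fall on coding sequence that the family shares. In a reading frame without a stop codon, 8 of the 20 codons of the MT1A probe, 8 of the 19 of the MT1H probe and 7 of the 20 of the MT1X probe encode cysteine, the residue that holds the metal. Each line below is 1 probe of 60 bases, 5′ to 3′, with capitals for the longest run of bases it has in common with another probe of the family.
MT1A: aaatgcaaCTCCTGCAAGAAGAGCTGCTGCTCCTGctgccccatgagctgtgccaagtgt
MT1H, coding: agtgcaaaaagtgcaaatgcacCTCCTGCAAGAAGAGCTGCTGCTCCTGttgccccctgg
MT1X, coding: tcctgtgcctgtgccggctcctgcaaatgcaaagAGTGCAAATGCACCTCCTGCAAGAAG
MT1A and MT1H have 27 identical bases in a row, and 42 of 46 aligned bases match. The coding probes of MT1H and MT1X have 26 in a row. In the genome, the MT1A probe spans 604 bases (chr16:56673205-56673808) and the MT1H coding probe 386 bases (chr16:56704448-56704833), more than their 60 bases, so both cross an exon junction. The MT1X coding probe is at chr16:56717082-56717141.

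Other probes lie nearer the 3′ end of the transcript. The last 30 bases of 3 such probes are printed because the MT1X and MT1F probes gave the 2 knockdown values that were not lower in Ca9-22 and the MT1H probe was at background, and capitals mark bases that differ from the MT1X probe.
MT1X, 3′ end: tagagcaacctatataaacctggatttttt
MT1F: CagagAGacAtGtaCaaacctggatttttt
MT1H, 3′ end: CagaATGacACGtaAaaTccAggatttttt
MT1F differs from MT1X at 6 of these 30 bases and the MT1H 3′ probe at 10. MT1B and the upstream MT1E probe are also close to each other, with 49 of 59 aligned bases the same. Their first 30 aligned bases follow, with capitals where they differ, which is at 3 positions.
MT1E, upstream: GcatcGgagaagtgcAgctgctgtgcctga
MT1B: TcatcAgagaagtgcCgctgctgtgcctga
Of the 66 pairs of metallothionein probes, 9 had a run of at least 12 identical bases. MT2A, the most strongly expressed metallothionein of many human tissues, had a probe with at most 7 identical bases in a row with any other, and MT1M at most 7 with another metallothionein probe. Array annotation lists transcripts of more than 1 gene for 3 probes. These were the MT1A probe (also MT1M), the downstream MT1E probe (also MT1M and MT1JP) and the MT1X coding probe (also MT1B). Signals of these probes may hold RNA of several genes, so agreement among them does not count as agreement of separate genes.

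**Figure D1:**
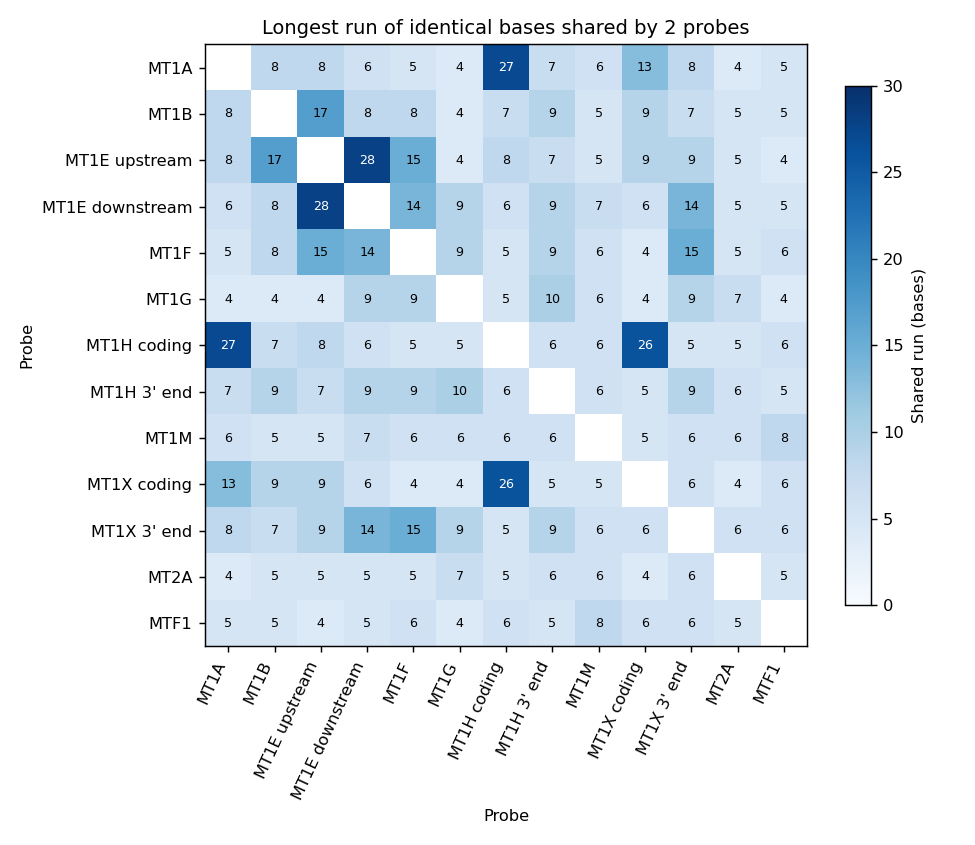
Longest run of identical bases shared by each pair of the 13 probes, in bases, with darker blue for longer runs. The darkest cells are the 2 MT1E probes (28 bases), MT1A with MT1H coding (27) and MT1H coding with MT1X coding (26), while the MT2A row holds no value above 7.

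Metallothionein promoters carry metal response elements, short motifs to which MTF1 binds. The core was searched as TGCACNC or TGCGCNC on both strands in the 250 bases before the start of each gene, in the RefSeq promoter table (GRCh38.p14). The table held 5 of the 10 genes: MT1B, MT1H, MT1X, MT2A and MTF1. It gave 3 cores for MT1B, 8 for MT1H, 4 for MT1X, 7 for MT2A and 0 for MTF1. Among all 35116 promoters of that length, 24.8% had at least 1 core, 0.37% at least 4 and 0.0313% at least 7. The windows of MT2A and MT1X are printed because these genes gave the smallest and the largest knockdown difference of the family, with cores of either strand in capitals.
MT2A, chr16:56608334-56608583, plus strand: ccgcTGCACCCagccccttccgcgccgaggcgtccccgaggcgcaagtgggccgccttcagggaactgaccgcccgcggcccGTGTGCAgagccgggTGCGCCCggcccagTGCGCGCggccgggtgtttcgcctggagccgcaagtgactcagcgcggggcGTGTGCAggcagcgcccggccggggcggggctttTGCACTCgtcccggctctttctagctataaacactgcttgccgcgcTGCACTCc
MT1X, chr16:56682220-56682469, plus strand: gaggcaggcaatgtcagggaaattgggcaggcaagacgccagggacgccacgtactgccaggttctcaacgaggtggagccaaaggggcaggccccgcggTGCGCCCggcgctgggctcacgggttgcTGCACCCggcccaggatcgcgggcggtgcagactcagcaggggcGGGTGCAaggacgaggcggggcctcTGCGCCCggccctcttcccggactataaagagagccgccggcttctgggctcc
A match of these letters is a description of the window and does not show that a factor was bound in these cells.

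After siDLEU1-2, 9 of the 10 metallothionein probes kept for testing were more than 1.5-fold lower in HSC-3 and 9 of 10 in KON, but 0 of 10 in Ca9-22. In all 3 lines the background over all kept probes was about the same, 15.1% in HSC-3 and 16.0% in KON, with 14.9% in Ca9-22. MT2A was the 1 probe that stayed within 1.5-fold in every line. Their median on the log2 scale was -0.82 in HSC-3 and -0.81 in KON, with -0.13 in Ca9-22, or 56.5%, 57.1% and 91.3% of the control. Over all kept probes the medians were -0.0016, 0.019 and -0.0083. The pattern of the 9 probes, over 1.5-fold lower in both HSC-3 and KON and within 1.5-fold in Ca9-22, was seen in 2.26% of all kept probes; it was picked out after the values were seen.

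No metallothionein probe passed the test over the 3 lines. With limma, 0 of 10 had an adjusted p below 0.05, where 4.52% of all kept probes were called lower and 8.50% called in either direction. At an unadjusted p below 0.05, 8 of 10 were lower, against 14.9% of all kept probes. A lower value in each of the 3 lines was found for 8 of 10 probes (26.7% of all). No metallothionein probe was more than 2-fold lower in all 3 lines, which 2.08% of all probes were. Whether the knockdown difference of Ca9-22 departs from that of HSC-3 and KON was not tested, because this grouping of the lines was seen in these same values.

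**Figure D2:**
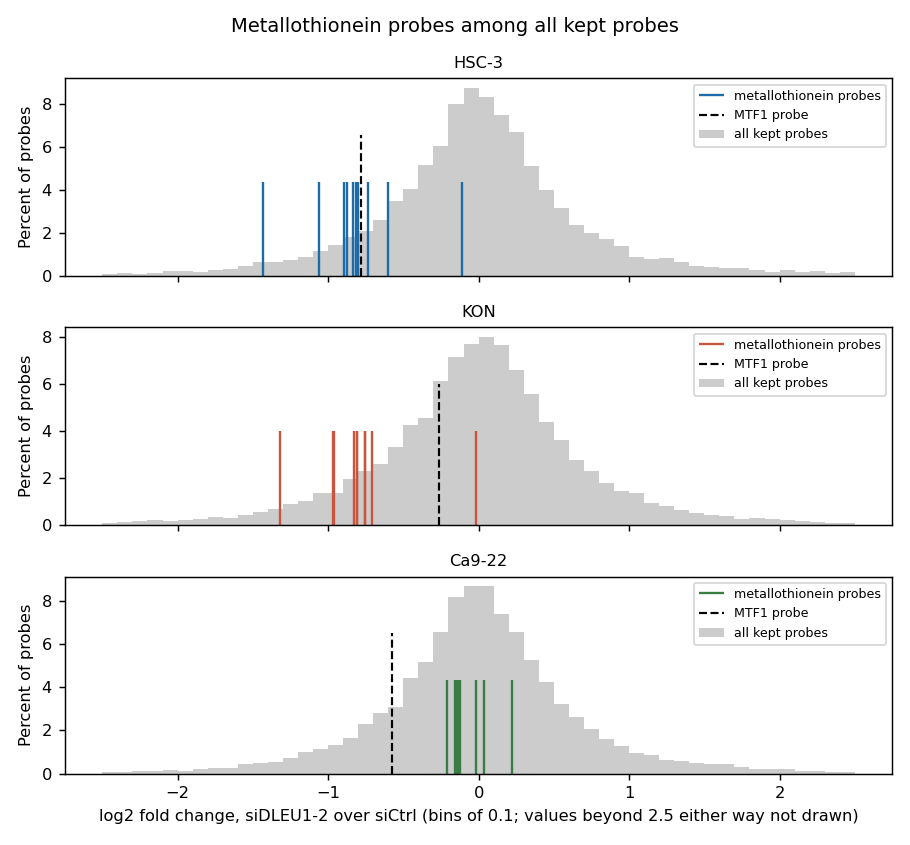
Log2 fold change of siDLEU1-2 over siCtrl in each line, as the percent of the 19956 kept probes per bin of 0.1 (grey bars), with the 10 metallothionein probes as colored lines and MTF1 as a dashed line; line heights carry no value. The lines of 9 metallothionein probes sit left of the center of the distribution in HSC-3 and KON, and those of all 10 sit near the center in Ca9-22.

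MT2A, the major metallothionein 2 isoform, had the smallest difference of the family. Its processed signal, a background-subtracted intensity without scaling between arrays, was 102961 with siCtrl and 87966 with siDLEU1-2 in HSC-3. In KON it was 95242 and 89442, and in Ca9-22 it was 80363 and 76779. The 6 values lay close together, and the ranges of both siRNAs overlapped. After scaling, MT2A was at 92.7% of control in HSC-3 and 98.7% in KON, with 98.9% in Ca9-22. The mean log2 fold change was -0.048 (95% interval -0.39 to 0.30; limma adjusted p = 0.846). No spot was saturated on these arrays, and compression of bright signals below saturation was not tested.

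MT1X encodes a metallothionein 1 isoform and had the largest difference. Its 3′ probe, at chr16:56717962-56718021, read 2661 with siCtrl and 908.5 with siDLEU1-2 in HSC-3, and 2469 and 943.3 in KON. In Ca9-22 the readings were 2571 and 2545. The siCtrl values of the 3 lines were within a narrow range, and the low values were those of siDLEU1-2 in HSC-3 and KON. Thus the probe was at 37.0% of control in HSC-3 and 40.1% in KON, with 102.5% in Ca9-22, and 2.70-fold lower in HSC-3. The mean log2 fold change was -0.90 ± 0.82 (SD, n = 3 lines), with a 95% interval of -1.78 to -0.027 (limma adjusted p = 0.160). The sign in Ca9-22 depended on the scaling, with log2 fold changes between -0.035 and 0.047 over 6 scalings. On the MT1X coding probe, whose annotation also lists an MT1B transcript, the differences were smaller in HSC-3 and KON, at 47.9% and 56.4% of control, and the Ca9-22 value was 90.2% (mean log2 fold change -0.68; adjusted p = 0.128). The 2 MT1X probes share at most 6 bases in a row.

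MT1F, another metallothionein 1 isoform, was read by a single probe. That probe, at chr16:56693077-56693136, read 711.8 with siCtrl and 393.4 with siDLEU1-2 in HSC-3, and 326.0 and 176.9 in KON. Ca9-22 gave 1638 with siCtrl and 1842 with siDLEU1-2. Both Ca9-22 arrays were above the other 4, and the siRNA ranges overlapped. MT1F was at 60.0% of control in HSC-3 and 57.0% in KON, with 116.5% in Ca9-22 (mean log2 fold change -0.44 ± 0.57, SD, n = 3 lines; limma adjusted p = 0.316). The higher value in Ca9-22 kept its sign under 6 scalings, with a log2 fold change between 0.15 and 0.25.

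MT1E was read by 2 probes whose positions overlap by 30 bases, of which 29 are the same. The upstream one, at chr16:56660853-56660912, gave 32897 with siCtrl and 16514 with siDLEU1-2 for HSC-3, 40724 and 22944 for KON, and 32928 and 28739 for Ca9-22. It was the 1 metallothionein probe on which every siDLEU1-2 array was below every siCtrl array after scaling, as 5.36% of all kept probes were. The mean log2 fold change was -0.59 ± 0.39 (SD, n = 3 lines; limma adjusted p = 0.132). On the downstream probe, at chr16:56660883-56660942, the signals were 12443 and 6171 for HSC-3, 37164 and 18152 for KON, and 35095 and 31135 for Ca9-22. After scaling, each HSC-3 array was on this probe below the arrays of the other lines with the same siRNA, which on the upstream probe was not so for siCtrl. Knockdown values of the downstream probe were 53.8%, 51.3% and 91.8% of control in HSC-3, KON and Ca9-22, close to the 54.5%, 59.2% and 90.4% of the upstream probe.

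MT1M has a probe of its own at chr16:56667810-56667869 that shares at most 8 bases in a row with any other. The signals were 5460 with siCtrl and 3314 with siDLEU1-2 for HSC-3, 10311 and 5027 for KON, and 9914 and 8291 for Ca9-22. It was at 65.9% of control in HSC-3 and 51.2% in KON, with 86.6% in Ca9-22, so the HSC-3 value was nearer to control than the KON value. The mean log2 fold change was -0.59 ± 0.38 (SD, n = 3 lines; limma adjusted p = 0.129).

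The MT1A, MT1B and MT1H coding probes ran closely together. MT1A signals were 79221 with siCtrl and 41853 with siDLEU1-2 for HSC-3, 76146 and 42903 for KON, and 49852 and 43128 for Ca9-22. On the MT1B probe, at chr16:56686948-56687007, they were 49551 and 25960, 43949 and 25592, and 25820 and 22724, in the same order. For the MT1H coding probe they were 56026 and 28935, 51257 and 27865, and 30904 and 27303. On each of the 3 probes the siCtrl arrays of HSC-3 and KON were the highest and the other 4 arrays were lower. HSC-3 values were between 56.1% and 57.3% of control for these probes, KON values between 57.1% and 61.2%, and Ca9-22 values between 89.6% and 91.5%. Mean log2 fold changes were -0.57 for MT1A, -0.55 for MT1B and -0.59 for MT1H (limma adjusted p = 0.129, 0.141 and 0.136). MT1A and MT1H share long runs, as shown above, so their values are not independent readings. The MT1B probe shares 8 bases in a row with MT1A and 7 with MT1H coding. With the upstream MT1E probe it shares 17, so it is not counted as independent of the family either.

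MT1G and the MT1H 3′ probe were not well above background on any of the 6 arrays. MT1G, at chr16:56700693-56700752 on the minus strand, read between 3.83 and 21.1, and the MT1H 3′ probe, at chr16:56704902-56704961, between 3.32 and 12.4. Neither was tested, and no fold change is given for them. The 2 MT1H probes therefore disagree: the coding probe was well above background on every array, and the 3′ probe, which shares at most 10 bases in a row with any other, was so on none. Of the 9 metallothionein genes, 8 had a probe kept for testing.

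**Figure D3:**
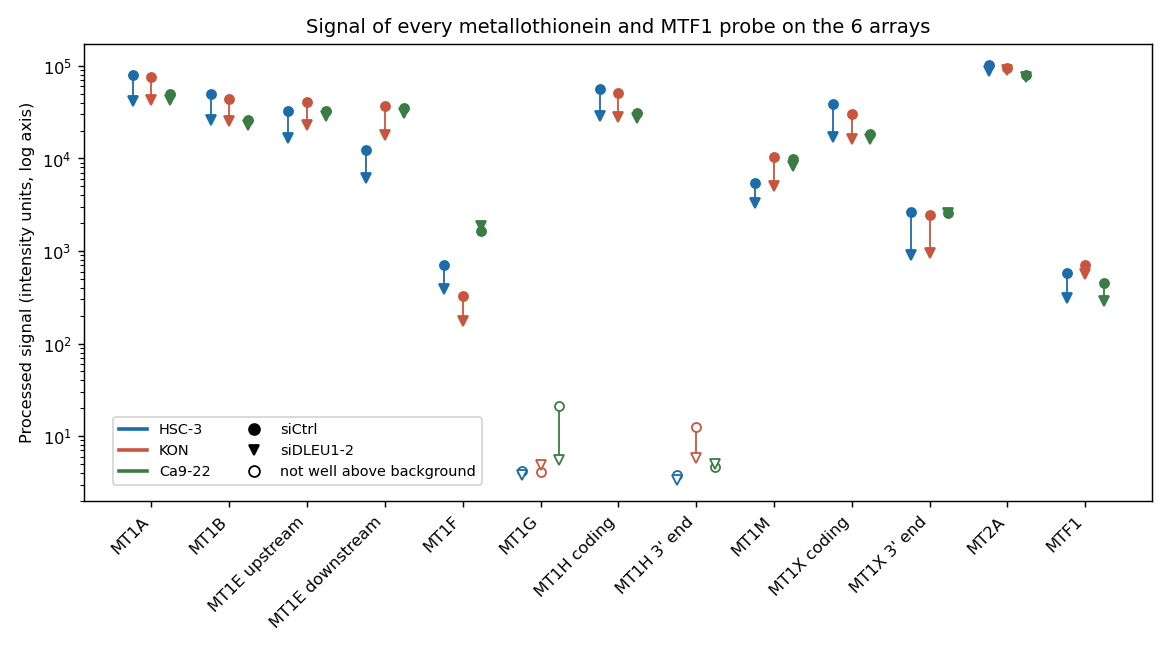
Processed signal of all 13 probes on the 6 arrays (log axis), with circles for siCtrl and triangles for siDLEU1-2, a line joining the 2 arrays of a cell line, and open symbols for spots not well above background. Heights of different probes are not comparable, while within a probe the HSC-3 and KON lines point down for 9 of the 10 measured metallothionein probes and those of MT2A are short; MT1G and the MT1H 3′ probe are open on all arrays.

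MTF1 was lower in all 3 lines, Ca9-22 included. Its signal was 579.9 with siCtrl and 310.4 with siDLEU1-2 for HSC-3, 712.4 and 564.1 for KON, and 447.4 and 289.8 for Ca9-22. The siCtrl array of KON was the highest, and the ranges of the siRNAs overlapped. MTF1 was at 58.1% of control in HSC-3 and 83.2% in KON, with 67.1% in Ca9-22 (mean log2 fold change -0.54 ± 0.26, SD, n = 3 lines; 95% interval -0.97 to -0.11). The limma adjusted p was 0.111. The order of the lines for MTF1, with KON nearest to control, differs from that of the MT1 probes, for which Ca9-22 was nearest.

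**Figure D4:**
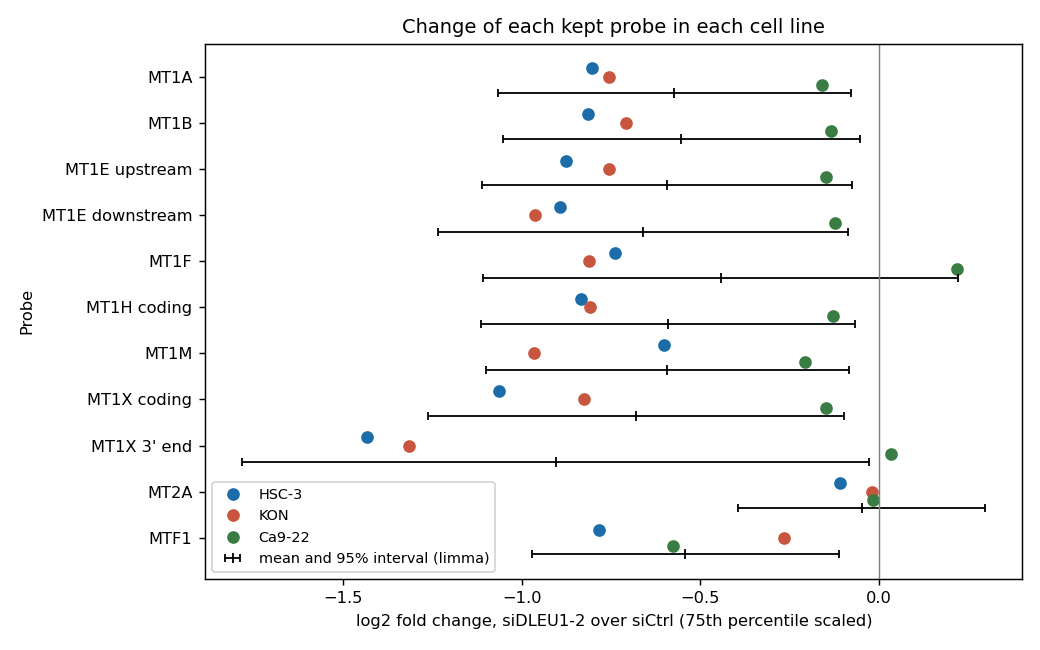
Log2 fold change of siDLEU1-2 over siCtrl for the 11 kept probes, with a colored point per cell line and the limma mean with its 95% interval in black below. HSC-3 and KON points of the 9 MT1 probes lie between -1.43 and -0.60, and their Ca9-22 points between -0.21 and 0.22; MT2A lies near 0 in all lines.

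Between the cell lines, 2 of 10 metallothionein probes were called when HSC-3 was set against KON, 3 when it was set against Ca9-22, and 1 when KON was set against Ca9-22, beside 36.2%, 36.6% and 33.2% of all kept probes. With median scaling the count for HSC-3 and Ca9-22 was 6 and with normexp 5, and with the looser filters it was 1, and 0 for HSC-3 and KON. Line contrasts used both arrays of each line, siDLEU1-2 included, within the same fit. MT1F followed the order Ca9-22, HSC-3, KON. It was 7.32-fold higher in Ca9-22 than in KON (limma adjusted p = 0.00844), 2.77-fold higher in Ca9-22 than in HSC-3 (adjusted p = 0.0256) and 2.64-fold higher in HSC-3 than in KON (adjusted p = 0.0282). All neighbors in that order differed. With siCtrl alone the scaled log2 levels of MT1F were 2.70 in Ca9-22, 1.71 in HSC-3 and 0.34 in KON. The fold values above also hold the knockdown difference, which was lower in HSC-3 and KON and higher in Ca9-22.

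The downstream MT1E probe was 2.47-fold lower in HSC-3 than in KON (adjusted p = 0.0239) and 3.18-fold lower than in Ca9-22 (adjusted p = 0.0140). KON and Ca9-22 did not pass on this probe (log2 difference -0.37, adjusted p = 0.336). On the upstream MT1E probe HSC-3 was 0.13 below KON and 0.16 below Ca9-22 on the log2 scale (adjusted p = 0.693 and 0.630), so the line difference rests on 1 of the 2 probes, the one whose annotation also lists MT1M and MT1JP. MT1M was 1.80-fold lower in HSC-3 than in Ca9-22 (adjusted p = 0.0492). Over both arrays, KON lay between them and passed against neither. With siCtrl alone the scaled log2 level of MT1M was 5.33 in KON, 5.30 in Ca9-22 and 4.65 in HSC-3.

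The line calls rest on few arrays: without any 1 array of HSC-3 or KON, 0 probes were called between these lines, and without either HSC-3 array or the siDLEU1-2 array of Ca9-22, 0 were called between HSC-3 and Ca9-22. Without the siDLEU1-2 array of KON, 0 were called between KON and Ca9-22. MT2A ran in the order HSC-3, KON, Ca9-22, with a log2 difference of 0.52 between the ends (adjusted p = 0.0628). MT1A, MT1B, the MT1H coding probe and the MT1X coding probe ran in the same order, and none of their contrasts passed. On the MT1X 3′ probe no contrast passed. Its mean over both arrays was highest in Ca9-22, but with siCtrl alone the scaled log2 level was 3.61 in HSC-3, 3.35 in Ca9-22 and 3.27 in KON. MTF1 was 1.74-fold higher in KON than in Ca9-22 (adjusted p = 0.0402), and HSC-3 lay between them without passing against either.

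Other metallothionein genes were sparse on the array. Of 11 listed, 5 had a probe and 2 were kept. MT1L, a pseudogene of the cluster, had signals of 47922 with siCtrl and 24430 with siDLEU1-2 for HSC-3, 37655 and 21489 for KON, and 27025 and 21343 for Ca9-22. Its log2 fold changes were -0.85, -0.74 and -0.29 (limma adjusted p = 0.0934), and its probe shares 19 bases in a row with the upstream MT1E probe and 19 with the MT1F probe. MT3, a brain metallothionein that inhibits neuronal outgrowth, read between 879.4 and 1163 on all arrays and had log2 fold changes between -0.032 and 0.017. MT4 and MT1DP were not well above background on any array.

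For zinc and copper genes, the counts of calls were near the 8.50% of all kept probes called in either direction. SLC30 proteins carry zinc out of the cytosol, and 0 of their 7 kept probes were called in either direction. SLC30A1, the plasma membrane zinc exporter and a textbook MTF1 target, read 463.6 with siCtrl and 437.9 with siDLEU1-2 for HSC-3, 1123 and 1016 for KON, and 328.9 and 265.6 for Ca9-22 (mean log2 fold change -0.099; limma adjusted p = 0.689). Among the 11 kept probes of the SLC39 importers, 1 was called. SLC39A10 rose, with a mean of 1.22 on the log2 scale, from 88.3 to 211.5 in HSC-3, 133.3 to 310.2 in KON and 104.6 to 202.5 in Ca9-22 (adjusted p = 0.0274). Of 18 copper-handling probes, 1 was called: SCO1, a copper chaperone of cytochrome c oxidase, rose by 1.43 (adjusted p = 0.0247). Of the zinc and copper probes not called, SLC39A8 (1.58), SLC31A2 (-1.33) and SLC39A1 (-1.03) had the largest mean log2 fold changes. Their limma adjusted p were 0.140, 0.0527 and 0.0587, and each kept its direction in every line. The median of the mean log2 fold changes was -0.050 for SLC30, 0.12 for SLC39 and -0.0074 for copper handling, beside 0.0073 for all kept probes.

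Glucocorticoids and oxidative stress are known to induce metallothioneins, and genes that respond to them were listed as well. Of 10 kept probes of glucocorticoid-responsive genes, 3 were called higher. They were DUSP1, a MAP kinase phosphatase (log2 1.92, limma adjusted p = 0.0227), ERRFI1, an inhibitor of the EGF receptor (2.31, 0.0247), and SGK1, a serum- and glucocorticoid-regulated kinase (0.96, 0.0385). These 3 genes also respond to growth factors and other stimuli. Among the kept probes not called, the mean log2 fold change was 1.44 for TSC22D3 and 0.47 for KLF9. It was below 0 for FKBP5 (-0.26), PER1 (-0.017) and the probes of NR3C1 (-0.34, -0.36 and -0.43). Of 12 probes of metal and oxidative stress-responsive genes, 1 was called higher, for TXNRD1, a thioredoxin reductase (1.75, 0.0307). HMOX1 (mean log2 fold change 1.06), SLC7A11 (0.90), HSPA1B (0.44) and DNAJB1 (0.43) were higher in every line without being called. NQO1 (-0.30) and GCLM (-0.18) were lower in every line. GCLC, HSPA1A, SRXN1 and HSPH1 differed in direction between lines or probes. None of the probes in these lists was called lower, and over all kept probes 3.98% were called higher; 1 of 12 is too few to set the stress list apart from that share. All 6 calls in these gene lists, SLC39A10 and SCO1 included, were lost without HSC-3 or without KON, and 2 probes were called without Ca9-22. The 6 calls were also lost with a filter of 1 of 6 arrays or none, without cell line as a block, and with the methods' t-test. The list medians were 0.23 for both, on the log2 scale.

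The probes most like MT2A followed it closely. Over the 6 arrays, each profile centered on its own mean, the kept probes with the smallest root mean square difference from MT2A were those of ROMO1 (0.038), THRAP3 (0.039), RPL31 (0.040), RPL10A (0.048) and RPL7A (0.049), in log2 units. RPL31, RPL10A and RPL7A are proteins of the large ribosomal subunit. MT2A itself spread by 0.22 around its mean. For the MT1X 3′ probe, which was chosen after its values were seen and spread by 0.64, they were TMEM184A (0.14), CORO2A (0.19), NPL (0.19), PHYH (0.20) and CNNM2 (0.21). TMEM184A had log2 fold changes of -1.45 in HSC-3 and -1.38 in KON, with -0.067 in Ca9-22. These likenesses describe 6 arrays and were not tested.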

How the data were processed

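One-color Agilent arrays were analyzed, 6 in all, with groups taken from the siRNA in the sample labels. The authors deposited scanner output of Agilent Feature Extraction 10.7.3.1, and the intensity used is its processed signal, background-subtracted and not scaled between arrays. The deposited series table, also intensity, differed from it by at most 0.497%. The paper names GeneSpring GX for analysis, and the scaling it used is not given in the sources used here. All arrays were on 1 slide and 1 scan, so no slide batch could be tested.

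From these files, log2 of the processed signal minus the 75th percentile of each array was taken, after control and outlier spots were removed and replicate spots averaged. Well above background means that 50% or more of the spots of a probe carried that mark, and 55 probes that lacked a usable spot on some array were dropped. The model was fitted with limma 3.58.1 in R 4.3.3 (lmFit, eBayes; siRNA with cell line as a block, 2 residual degrees of freedom), with Benjamini-Hochberg adjustment over all 19956 kept probes and a threshold of 0.05. The block is the cell line: deviations of the 2 arrays of a line from their group means correlated at 0.83 (HSC-3), 0.81 (KON) and 0.82 (Ca9-22). On simulated data with 200 changed probes (log2 change 1.5), 183 were recovered and 18 others were called. Mean log2 fold changes of the kept metallothionein probes were smaller in size, from -0.90 for the MT1X 3′ probe to -0.048 for MT2A. Recovery of differences of that size was not tested. The number of arrays limits the precision; among 581 probes with 10 spots, the median SD of the spots of an array was between 0.060 and 0.066 on the log2 scale.

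All members, every list gene with a called probe, SLC30A1, the 5 probes most like MT2A and DLEU1 were named. The genes and lists were chosen with earlier results of these data known. Probe positions are on hg19, as in the files, and promoters on GRCh38.p14. No protein sequences were compared. Alternatives were other scalings (median, 75th percentile of probes detected on all arrays, quantile, normexp with an offset of 50, the series table), other filters, no block, the methods' t-test, the mean of the probes of a gene, other fold thresholds and leaving out a line or an array.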

Additional observations from a re-analysis of the deposited data

Results flagged for a closer look

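In 2 probes the direction of the knockdown difference was not the same in every line; these differences between lines were not tested. On the MT1F probe, HSC-3 and KON were lower and Ca9-22 higher after siDLEU1-2, with a range of 1.03 between the log2 fold changes. On the MT1X 3′ probe the range was 1.47, but the value in Ca9-22 was 0.036 and turned to -0.035 under another scaling, so its direction there is not settled.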

How the results depend on the processing

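Under every alternative run, limma or the methods' t-test called 0 metallothionein probes after siDLEU1-2. With a filter of 1 of 6 arrays or none, without the block, with the t-test, or without HSC-3 or KON, 0 of all probes were called. The count of 0 under those settings therefore carries no information on the metallothionein probes. The mean log2 fold changes of the 11 tested probes kept their sign and stayed short of the threshold under all 14 alternatives of each. Counts of 9 probes more than 1.5-fold lower in HSC-3 and 9 in KON stayed at 9 or, without a filter on dim probes, became 10 in KON. In Ca9-22 the count of 0 became 1 without that filter. With Ca9-22 left out, 1 metallothionein probe was more than 2-fold lower in both remaining lines. The mean log2 fold change of MT1F then went from -0.44 to -0.77, and that of the MT1X 3′ probe from -0.90 to -1.37. Without KON these means were -0.26 and -0.70, and without HSC-3 they were -0.30 and -0.64.

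Line contrasts were less stable. Between HSC-3 and Ca9-22 the count of 3 became 6 when arrays were centered on their medians, 5 with normexp, and 1 with a filter of 1 of 6 arrays or none, and between HSC-3 and KON the count of 2 became 0 with those 2 filters. Leaving out single arrays gave between 0 and 2 called probes for each of the 3 contrasts; the array left in a line was then assumed to vary like the others.

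Of the metal-handling and responsive genes, 6 probes were called. This became 10 with normexp, 0 with the 2 looser filters, without the replicate block, with the methods' t-test, or without HSC-3 or KON, and 2 without Ca9-22. Over all probes, 1697 were called, but 0 under each setting that gave 0 for these lists and 244 without Ca9-22. Without the replicate block, 0 of the metallothionein probes were called as well. Over all kept probes, the median log2 fold change in KON moved from 0.019 to -0.10 when arrays were centered on their medians and to 0.30 without a filter, where it was 0.16 in Ca9-22. Among all kept probes, 831 were more than 2-fold changed the same way in every line, and 395 with normexp. Why the counts moved was not tested.

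Depth sets a limit too: each line and siRNA has 1 array, and 2 probes at background gave no value.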
